A study of Mus musculus with 35 samples.

Results

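The comparison of high with low stretch ventilation at normal inspired gas CO2 (normocapnia) used 15 of the 35 arrays of the study: 10 mouse lungs ventilated at high stretch and 5 ventilated at low stretch. All 19938 genes with a probe set that carries exactly 1 gene symbol were compared, and a gene with several such probe sets was represented by its brightest one, judged by the average of all 35 arrays. The mice of both groups were adult male C57BL/6J animals of 20 to 25 g, without a genetic change named in the labels, ventilated for 3 h under anaesthesia. At low stretch the tidal volume was 10 mL/kg in room air, with a positive end-expiratory pressure (PEEP) of 2.0 cmH2O and 135 breaths per minute. At high stretch it was about 35 to 40 mL/kg, with a peak pressure of 27 cmH2O, a PEEP of 0 and 30 to 35 breaths per minute, and the gas held an oxygen fraction of 0.75, a CO2 fraction of 0 and nitrogen. Oxygen, PEEP and rate changed together with tidal volume, so their parts in any difference cannot be told apart. The animals were bled to death, the lungs were lavaged and frozen, and the RNA of each lung went onto its own whole-transcript array. The same ventilation with added CO2 (5 low stretch and 10 high stretch mice) and 5 non-ventilated mice made up the other 20 arrays; the study asked how CO2 changes the response of the lung to high stretch.

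Over-distension of the lung by a ventilator strains alveolar epithelium, endothelium and fibroblasts and can injure them, a form of damage known as ventilator-induced lung injury. Stretched cells release ATP, shed ligands of the EGF receptor and open ion channels, and kinase cascades then switch on immediate-early genes, which need no new protein and code for transcription factors such as FOS, EGR and ATF3. Later genes code for cytokines and chemokines that call in leukocytes, for matrix proteins, and for proteins that seal or repair the epithelium. Whole lung holds all of these cells, so a lower signal can come from fewer cells of a type or from less RNA per cell, which cannot be told apart here.

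Median array signals lay between 6.96 and 7.05 on the log2 scale over all 35 arrays, and no pair of arrays was identical. The tissue label was borne by its markers: the surfactant gene Sftpc lay between 13.97 and 14.10 on the low stretch arrays and between 13.96 and 14.08 on the high stretch arrays, and the alveolar type 1 gene Ager between 12.87 and 13.04 and between 12.86 and 12.97. Nothing in the labels says that the animals of a group came from separate litters or days, and no batch is given. The p-values thus rest on the spread between animals within a group, pooled over all 5 groups of arrays, and whatever went with it.

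Values below are log2 array signals, and a change is the mean at high stretch minus the mean at low stretch, so that 1 unit is a doubling. A gene was called when its limma p-value, adjusted by the Benjamini-Hochberg method over all 19938 genes, was under 0.05. High stretch moved 3646 genes, 18.3% of those tested: 1739 rose (8.72%) and 1907 fell (9.56%), against a median change over all genes of -0.02. Most changes were small, since 3168 of the called genes differed by less than 0.5 log2 and the median size was 0.283. The large ones ran almost entirely upward: 83 genes rose by at least 1 log2 (0.416%), and 2, Fam216b and Cckar, fell by as much (0.01%). Of these 85 genes, 73 had arrays that did not overlap between the groups. Over all genes, 743 had every high stretch array above every low stretch array (3.73%) and 569 had every one below (2.85%). Leaving out low stretch array 3 lowered the number of genes that fell from 1907 to 1162; apart from that, leaving out any 1 array moved the numbers of genes called, called higher, called lower and called with at least 1 log2 by less than 1.5 times. In the gene lists below, a share of rises or falls near 8.72% or 9.56% is that of all genes and is no result about the list. The lists were chosen with earlier results of these data known, so a larger share is a description and no test of a list. Members named are mostly the called ones with the largest changes.

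The largest rise was that of Il6, the cytokine interleukin-6. Its low stretch arrays read 4.58, 4.53, 4.26, 4.41 and 4.24, and its 10 high stretch arrays ran from 6.62 to 8.60 with a median of 7.72. The groups lay far apart, and even the lowest high stretch lung stood well above every low stretch lung. The change was 3.29 ± 0.24 (SE), or 9.8-fold (adjusted p = 5.7e-12), and non-ventilated lungs averaged 4.33, close to low stretch. Both groups lay near the lower end of the signal range, where a small difference between them may not show.

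Cldn4 codes for claudin-4, a tight junction protein of the alveolar epithelium. It read 8.57, 8.05, 8.00, 8.19 and 8.58 at low stretch and between 10.44 and 11.53 at high stretch (median 10.70). No array of one group came near the other. The change of 2.57 ± 0.14, or 5.94-fold, had the smallest p-value among the genes described here (adjusted p = 5.8e-15).

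Sfn, the epithelial adaptor protein 14-3-3 sigma, read 9.42, 7.69, 7.62, 7.65 and 8.78 at low stretch and between 10.16 and 11.08 at high stretch (median 10.45). Ptgs2, the inducible cyclooxygenase COX-2, read 11.03, 9.28, 8.81, 9.34 and 9.52 against 11.37 to 12.31 (median 11.67). For both genes low stretch array 1 was the highest of its group, and it still lay under all high stretch arrays. Sfn rose 5.1-fold (log2 change 2.35 ± 0.24, adjusted p = 5e-09) and Ptgs2 4.42-fold (2.14 ± 0.23, adjusted p = 1.8e-08). Atf3, a stress-induced transcription factor of the CREB family, read 10.04, 8.02, 7.63, 7.94 and 8.15 against 9.96 to 10.97 (median 10.46). Here the groups touched: 8 of 10 high stretch arrays lay above all low stretch arrays, and the other 2 lay above all but array 1. Atf3 rose 4.26-fold (2.09 ± 0.24, adjusted p = 7.1e-08), and without low stretch array 1 the change was 2.51.

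The immediate-early factors Egr2 and Fosb showed the same separation. Egr2 read 6.87, 6.64, 6.42, 6.62 and 7.08 at low stretch and between 8.25 and 9.46 at high stretch (median 9.05), a rise of 2.29 ± 0.18 (4.88-fold, adjusted p = 1.4e-11). Fosb read 7.10, 7.47, 6.44, 6.81 and 6.91 against 8.17 to 10.50 (median 9.03), a rise of 2.14 ± 0.28 (4.41-fold, adjusted p = 6.9e-07). Their low stretch means of 6.72 and 6.95 lay below their means in non-ventilated lungs, 7.05 and 7.31, but neither difference was called (adjusted p = 0.373 and 0.574). Il1b, the cytokine interleukin-1 beta, did not separate high from low stretch. Its low stretch arrays read 10.42, 10.19, 9.41, 9.82 and 9.29, and its high stretch arrays ran from 9.33 to 10.96 with a median of 9.90. The groups overlapped almost completely (change 0.11 ± 0.31, adjusted p = 0.889), although both lay above the non-ventilated mean of 7.64.

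**Figure D1:**
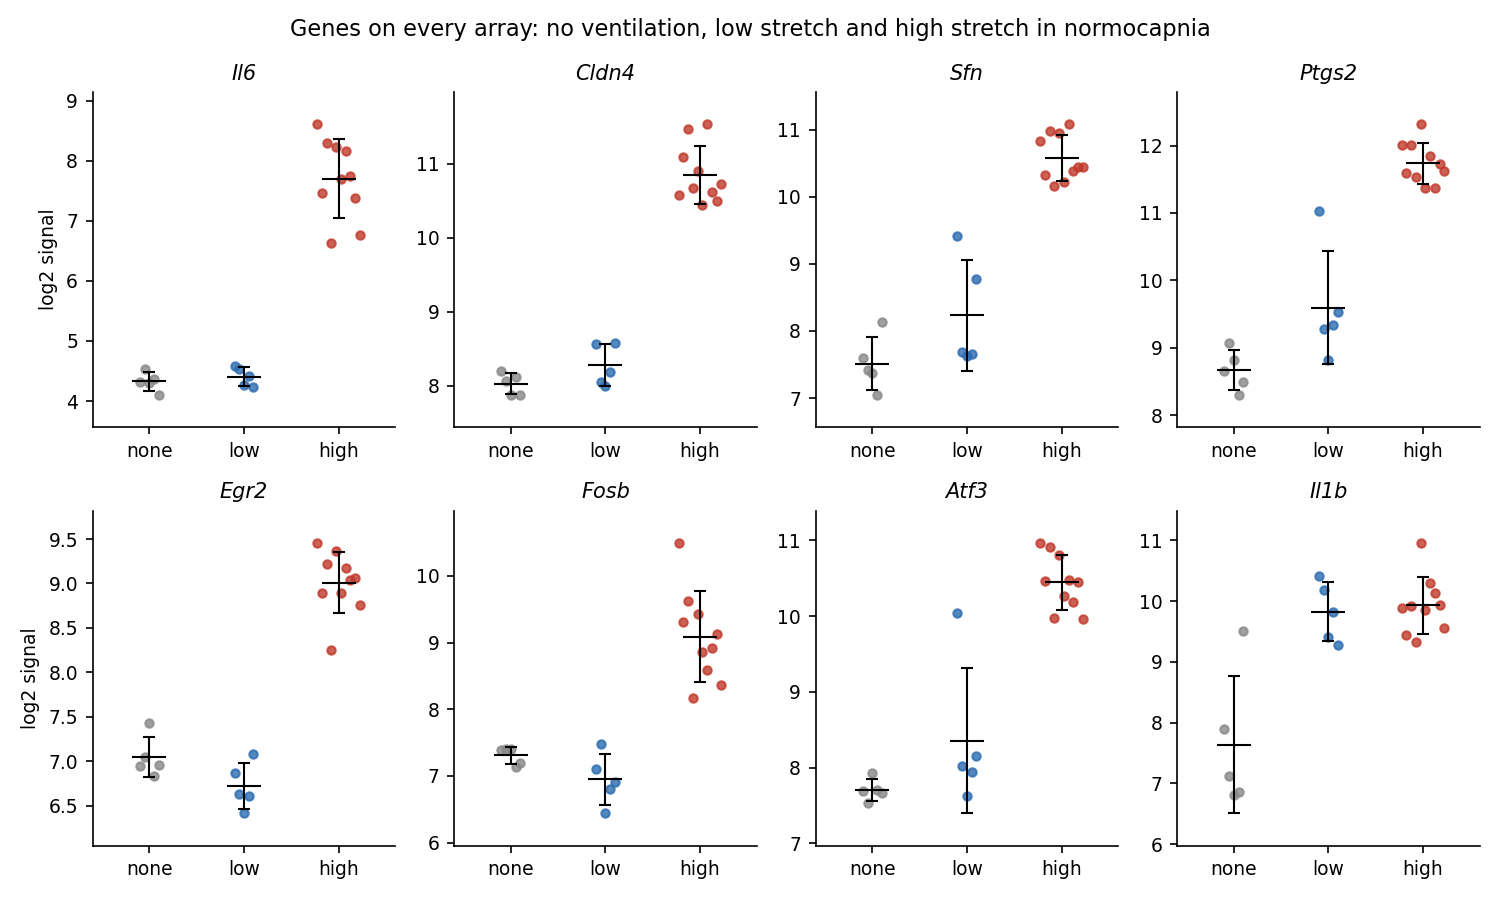
Log2 array signal (vertical axis) of 8 genes in 5 non-ventilated, 5 low stretch and 10 high stretch lungs in normocapnia. Points are arrays, the long bar is the group mean and the short bars mark 1 SD. For Il6, Cldn4, Sfn, Ptgs2, Egr2 and Fosb every high stretch point lies above every low stretch point, for Atf3 the groups touch at 1 low stretch lung, and for Il1b they overlap.

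The 20 genes with the largest called rises also held the receptor Tnfrsf12a (1.76), the oxysterol-making enzyme Ch25h (1.72), the nuclear receptor Nr4a1 (1.68), the EGR factor Egr1 (1.89), the hyaluronan-binding protein Tnfaip6 (1.66), the cornified envelope gene Sprr1a (1.65), the chemokine Ccl3 (1.65), the matricellular genes Ccn1 (1.65) and Thbs1 (1.58), the keratin Krt8 (1.62), the hyaluronan synthase Has1 (1.58), Phlda1 (1.56) and F3 (1.52), which codes for tissue factor. For 18 of these 20 genes the arrays did not overlap, and the exceptions were Atf3 and Ccl3. Sprr1a read 9.35 on non-ventilated array 5, above all high stretch arrays, the highest of which read 9.22. Ccl3 read 9.38, 8.38, 6.99, 6.89 and 7.33 at low stretch and between 8.75 and 10.23 at high stretch, and 5 of 10 high stretch arrays lay above all low stretch arrays. Averaged over the 20 genes and set against the low stretch mean, the low stretch arrays lay at 0.45, -0.07, -0.38, -0.17 and 0.17, and the high stretch arrays between 1.48 (array 4) and 2.41 (array 1). Low stretch array 1 was thus the highest of its group, and the weakest high stretch lung stood more than 1 log2 above it. The genes were picked for their size in this comparison, so this order of the arrays is a description. None of the 40 named genes (20 rises and 20 falls) lost its call when any single array was left out.

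The 20 largest called falls were smaller, from 1.16 log2 for Fam216b to 0.75 log2 for Ttpa, the vitamin E transfer protein. Fam216b read 8.68, 8.72, 8.70, 8.72 and 8.09 at low stretch and between 7.17 and 7.74 at high stretch (median 7.45). The groups did not overlap, and low stretch array 5 lay closest to the high stretch lungs (adjusted p = 7.9e-09). Cckar, a cholecystokinin receptor, read 8.99, 9.41, 9.83, 9.50 and 8.91 against 8.02 to 8.88 (median 8.21), and fell by 1.05 ± 0.16. Slc10a5, a carrier of the bile acid transporter family, fell by 1.00 ± 0.12 and Fam13a fell by 0.99 ± 0.16, each with no overlap.

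Genes of fat and alcohol metabolism were among them: the acyl-CoA synthetases Acss3 (-0.89) and Acsm3 (-0.85), the alcohol dehydrogenase Adh1 (-0.79) and the carrier Slc16a9 (-0.77). For Slc16a9 a dimmer probe set that was not kept changed by 0.03. The ciliary genes Rsph4a (-0.82), which codes for a radial spoke protein, and Cc2d2a (-0.78), a gene of the ciliary transition zone, also fell, as did the connexin Gjb6 (-0.80) and the basement membrane gene Frem1 (-0.86). Tat, the tyrosine aminotransferase that glucocorticoids induce, read 8.48, 9.11, 9.05, 9.14 and 7.84 at low stretch and between 7.11 and 8.55 at high stretch. Only 6 of 10 high stretch arrays lay under all low stretch arrays, with low stretch array 5 the lowest of its group; Tat fell by 0.94 ± 0.24 (adjusted p = 0.00504), and non-ventilated lungs lay lower still, at a mean of 6.96. The remaining falls were Ankub1 (-0.96), Kcnrg (-0.88), Olfml1 (-0.86), Fam214a (-0.85), Lrrc74b (-0.82) and Rassf9 (-0.78). Of the 20, 16 had no overlap. Their mean over the 20 genes, relative to low stretch, lay between -0.31 and 0.21 on the low stretch arrays and between -1.05 (array 7) and -0.61 (array 4) on the high stretch arrays.

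**Figure D2:**
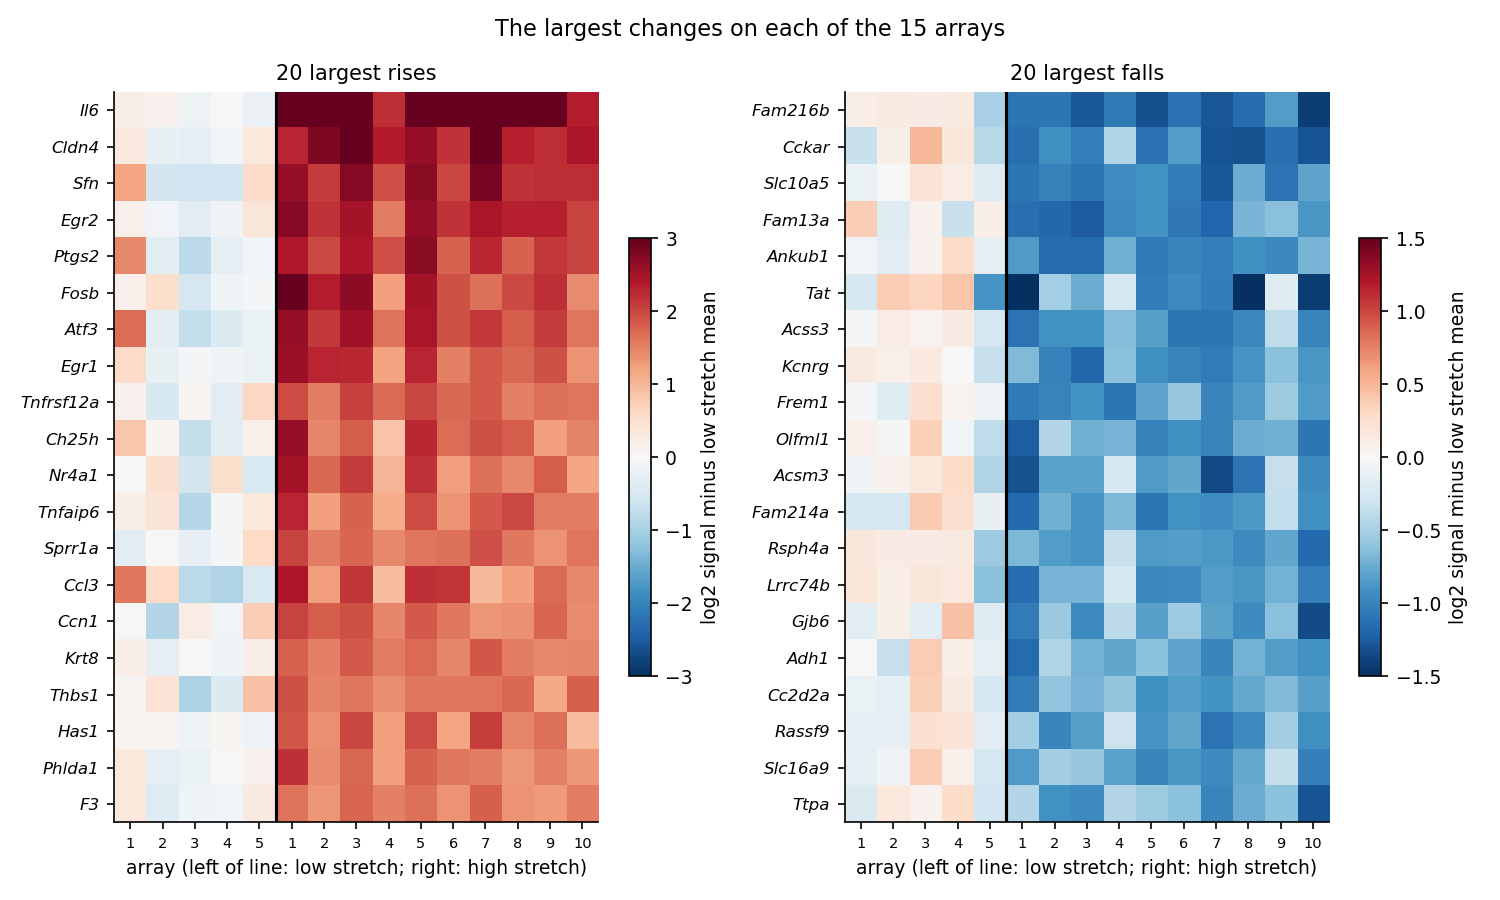
The 20 largest called rises and the 20 largest called falls (rows) on each of the 5 low stretch and 10 high stretch arrays (columns, split by a line); colour gives the log2 signal minus the low stretch mean, and the colour range of the falls is smaller than that of the rises. High stretch arrays 1, 3 and 5 are the deepest red among the rises and array 4 the palest in both blocks, while low stretch array 1 is tinted red for Sfn, Ptgs2, Atf3 and Ccl3.

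The DNA just before the start is shown for 5 of the genes that rose most, picked because it holds a motif that was searched. Whether any factor acted through these letters in the lungs was not tested. FOS, JUN and ATF3 proteins form AP-1 dimers that bind TGANTCA or TGACGTCA, the cAMP response element, SRF binds the CArG box, and NF-kappaB binds its own site. The stretches come from RefSeq on GRCm38.p6, are written 5′ to 3′ on the strand of the gene, and end at the base before the annotated start; capitals mark the motif named. F3 (chr3:121723385-121723536, plus strand) and Cldn4 (chr5:134946935-134947180, minus strand) each hold the AP-1 letters 2 times. Il6 (chr5:30012864-30013113, plus strand) holds them 1 time and an NF-kappaB site nearer the start, Egr2 (plus strand) holds a CArG box before each of a pair of annotated starts (chr10:67537488-67537565 and chr10:67537791-67537868, in that order), and Has1 (chr17:17855189-17855277, minus strand) a cAMP response element.
F3: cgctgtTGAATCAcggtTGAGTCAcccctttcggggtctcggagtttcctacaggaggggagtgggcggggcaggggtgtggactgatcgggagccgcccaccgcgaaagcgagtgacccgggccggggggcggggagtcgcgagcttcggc
Cldn4: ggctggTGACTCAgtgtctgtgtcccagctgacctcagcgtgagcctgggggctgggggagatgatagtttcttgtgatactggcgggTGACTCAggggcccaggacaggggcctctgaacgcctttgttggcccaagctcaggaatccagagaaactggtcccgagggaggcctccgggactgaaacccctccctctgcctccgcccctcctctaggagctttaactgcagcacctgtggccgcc
Il6: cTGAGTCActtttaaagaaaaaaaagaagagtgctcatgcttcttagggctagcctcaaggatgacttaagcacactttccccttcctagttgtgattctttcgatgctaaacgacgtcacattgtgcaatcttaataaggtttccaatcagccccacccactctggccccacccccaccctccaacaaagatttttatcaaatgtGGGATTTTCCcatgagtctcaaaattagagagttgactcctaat
Egr2: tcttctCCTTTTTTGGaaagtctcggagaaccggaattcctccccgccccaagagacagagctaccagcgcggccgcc
Egr2: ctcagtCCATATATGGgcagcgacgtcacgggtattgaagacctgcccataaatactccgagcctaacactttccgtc
Has1: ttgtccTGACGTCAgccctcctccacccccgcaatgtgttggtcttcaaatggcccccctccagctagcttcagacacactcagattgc

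Windows from 250 bases before to 50 bases after a start were at hand for 15614 of the 19938 genes, and both strands were read. AP-1 letters stood in the windows of 8.08% of all these genes and of 20.3% of the 59 genes with a window among the 83 that rose by at least 1 log2. For the cAMP response element the shares were 2.72% and 11.9%, for the NF-kappaB site 11% and 27.1%, and for the CArG box 1.63% and 1.69%. Over all genes that rose, of which 1330 had a window, the shares were 8.87% for AP-1, 5.49% for the cAMP response element, 12.6% for NF-kappaB and 2.48% for the CArG box. Over the 1498 genes with a window that fell they were 6.07%, 2.4%, 11.6% and 1.54% in the same order. Of the 20 largest rises, 17 had a window: 5 held AP-1 letters (Tnfaip6, Sprr1a, F3, Il6 and Cldn4), 2 the cAMP response element (Has1 and Ch25h), 4 an NF-kappaB site (Il6, Fosb, Nr4a1 and, at a start other than those shown, Egr2) and 1 a CArG box (Egr2). Of the 20 largest falls 14 had a window (17 windows in all), and none of these held AP-1 letters, a cAMP response element or an NF-kappaB site. A CArG box stood in 1 of the 14, Acsm3. At the shares over all genes so few genes would hold few matches, so nothing is read from these counts. A match is a run of letters in a short window, and binding was not measured.

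Among transcription factors, 17 of 21 EGR, NR4A, KLF and other immediate-early genes rose and none fell, with a median change of 0.71. Beyond Egr2, Egr1 and Nr4a1, the nuclear receptor Nr4a3 rose by 1.41 ± 0.27, the small MAF protein Maff by 1.32 ± 0.16, and Klf6, a zinc finger factor, by 0.71 ± 0.06. Not all members moved: Egr3 (0.14, adjusted p = 0.39), Nr4a2 (0.12, adjusted p = 0.646), Egr4 (-0.01, adjusted p = 0.978) and the endothelial flow-responsive factor Klf2 (-0.04, adjusted p = 0.916) did not pass the test. Of the AP-1 genes 8 of 10 rose (median 0.80), from Fosb, Atf3, Fos (1.43 ± 0.21) and Fosl1 (1.41 ± 0.13) to Jund (0.74 ± 0.06) and Jun (0.37 ± 0.07). Jund was among the tightest, with low stretch arrays at 9.54, 9.40, 9.31, 9.41 and 9.04 and high stretch arrays between 10.01 and 10.21. The inhibitors that damp these kinase cascades rose too, 10 of 15 DUSP, Sprouty and Spred genes (median 0.47) with none falling. The phosphatase gene Dusp8 read 7.94, 8.16, 7.90, 8.20 and 7.77 against 8.94 to 9.26, a rise of 1.05 with no overlap.

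Of 17 mechanosensitive channels and ATP receptors 4 rose and 2 fell. The ATP and UTP receptor P2ry2 read 8.03, 7.92, 7.90, 7.92 and 8.15 at low stretch and between 8.57 and 9.27 at high stretch, without overlap (0.97 ± 0.16, adjusted p = 3.2e-05). Gja1, a connexin, which forms gap junctions and ATP-passing hemichannels, rose by 1.11 ± 0.10, also without overlap. The stretch-gated channels Piezo1 (0.13, adjusted p = 0.271), Piezo2 (-0.11, adjusted p = 0.642) and Trpv4 (0.12, adjusted p = 0.193) did not pass. The ADP receptor P2ry1 fell by 0.29 and the ATP-gated channel P2rx7 fell by 0.23, but without low stretch array 5 neither was called, leaving a count of 0, and without low stretch array 3 P2rx7 was not called, leaving 1. Of 14 genes of the EGF receptor family 6 rose (median 0.15), with the ligands Hbegf (1.48 ± 0.19), Ereg (1.18 ± 0.13) and Btc (0.49 ± 0.08) ahead of the rhomboid-like trafficking genes Rhbdf2 (0.50) and Rhbdf1 (0.39). The receptors Egfr, Erbb2 and Erbb3 and the sheddase Adam17 lay between -0.07 and -0.01 and did not pass. None of the 14 fell, or 1 without low stretch array 5. Among 19 targets of YAP and SRF, the factors that read actin tension, 11 rose and none fell (1 without low stretch array 1, high stretch array 8 or high stretch array 9), Srf itself by 0.74 ± 0.05 and the focal adhesion gene Vcl by 0.46 ± 0.05.

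Beside Il6, other genes of the interleukin-6 family rose. Its ligand Lif, leukemia inhibitory factor, read 5.81, 5.76, 5.86, 5.84 and 6.07 at low stretch and between 6.67 and 7.53 at high stretch, with no overlap (1.17 ± 0.13, 2.26-fold). The feedback inhibitor Socs3 rose by 1.00 ± 0.20 and the ligand Clcf1 by 0.28 ± 0.07. For Socs3 a dimmer probe set that was not kept changed by 0.50. The receptor chain Lifr went the other way, at 10.62, 10.49, 10.83, 10.57 and 10.47 against 9.84 to 10.22, and fell by 0.58 ± 0.10 with no overlap, while Il6ra (-0.08) and the shared chain Il6st (-0.04) did not pass. In all 4 of 12 members rose and 1 fell, or 2 without low stretch array 5. In the interleukin-1 family 2 of 9 rose: Il1a by 0.63 ± 0.14, and Il33, an alarmin stored in nuclei. Il33 read 9.37, 9.62, 9.69, 9.53 and 9.20 against 10.28 to 11.47, with no overlap (1.33 ± 0.15, 2.52-fold). Il1b, Il18 (-0.05) and the inflammasome genes Nlrp3 (0.32, adjusted p = 0.212) and Casp1 (0.02) did not pass.

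Chemokines that draw neutrophils and monocytes rose in part. Of 13 CXC genes 4 rose and none fell. Cxcl5 read 6.40, 6.23, 6.00, 6.23 and 6.05 at low stretch and between 6.87 and 8.54 at high stretch (1.34 ± 0.21), and Cxcl1 rose by 1.10 ± 0.17. Both were without overlap, whereas Cxcl2 (0.81 ± 0.42, adjusted p = 0.212) and the interferon-induced Cxcl10 (0.43 ± 0.58, adjusted p = 0.723) did not pass and varied widely between animals of a group. Of 15 CC genes 7 rose and none fell: beside Ccl3 these were the monocyte attractants Ccl2 (1.37 ± 0.22), Ccl7 (1.28 ± 0.17) and Ccl12 (1.12 ± 0.23), the eosinophil attractant Ccl11 (0.83 ± 0.12), Ccl17 (0.73 ± 0.17) and Ccl22 (0.30). Ccl22 was not called without any 1 of low stretch arrays 1 to 4 or high stretch arrays 1, 6 and 8. None of 7 colony-stimulating factor genes passed, with Csf3 at 0.00 and Csf2 at -0.06.

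Of 16 genes of the TNF family 3 rose, among them Tnfrsf12a and the ligand Tnfsf9 (0.89 ± 0.15), and 1, the death ligand Tnfsf10, fell by 0.45; Tnfsf10 was not called without low stretch array 1, 2 or 3 or high stretch array 4 or 5. Tnf itself changed by 0.60 ± 0.22 and did not pass (adjusted p = 0.0582); it was called without low stretch array 1 (0.75, adjusted p = 0.0218) and without high stretch array 4 (0.63, adjusted p = 0.0474) or array 9 (0.65, adjusted p = 0.0372). NF-kappaB subunits and inhibitors rose in 9 of 15 cases (median 0.42): Bcl3 by 1.05 ± 0.22, the deubiquitinase gene Tnfaip3 by 0.69 ± 0.18 and Rela by 0.44 ± 0.06. Nfkbia, a classical early target, did not pass (0.12, adjusted p = 0.32), and Traf1 fell by 0.41 ± 0.09. Of 8 leukocyte adhesion genes 3 rose, with E-selectin, Sele, at 0.80 ± 0.15 and Icam1 at 0.35 ± 0.08.

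**Figure D3:**
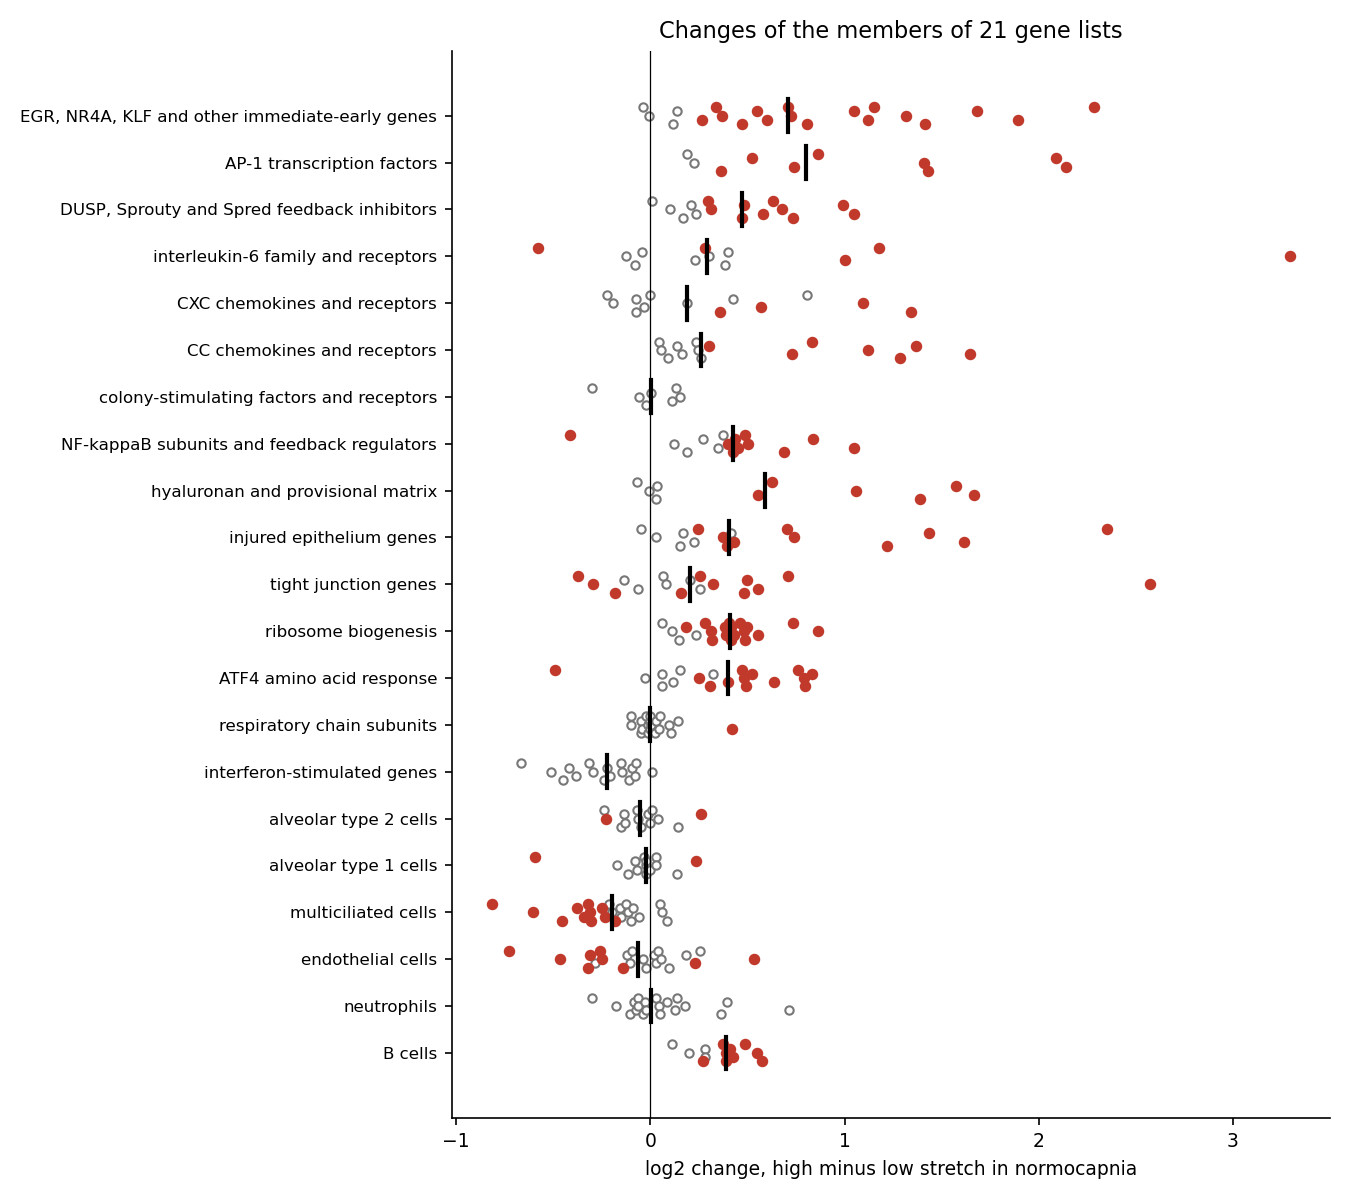
Log2 change, high minus low stretch in normocapnia (horizontal axis), of each measured member of 21 gene lists (rows). Filled points passed limma's adjusted p under 0.05, open points did not, and the black bar is the median of the list. Immediate-early, AP-1, hyaluronan and ribosome biogenesis genes lie mostly to the right, multiciliated genes mostly to the left, and neutrophil, respiratory chain and colony-stimulating factor genes around 0.

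Of 18 prostaglandin genes 5 rose and 3 fell, and without low stretch array 5 only 3 rose. The synthases Ptgs2 and Ptges (0.59 ± 0.11) and the PGE2 receptor Ptger4 rose, Ptger4 from 7.75, 7.51, 7.13, 7.46 and 7.77 to between 8.17 and 8.76 without overlap (0.96 ± 0.13). The genes of prostaglandin uptake and breakdown, Slco2a1 and Hpgd, fell by 0.26 ± 0.06 and by 0.35 ± 0.10, and the receptor Ptgfr fell by 0.61 ± 0.14. None of 11 leukotriene genes passed.

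High stretch raised genes of the provisional matrix, the hyaluronan-rich gel that forms in injured tissue. Of 10 genes of hyaluronan and its binding partners 6 rose, all 6 without overlap between the arrays, against 3.73% of all genes (median of the list 0.59). Has1 read 7.26, 7.28, 7.07, 7.27 and 7.10 at low stretch and between 8.14 and 9.27 at high stretch (1.58 ± 0.17). Tnfaip6, which links hyaluronan to proteins, read 7.24, 7.45, 6.22, 7.03 and 7.37 against 8.18 to 9.34 (1.66 ± 0.22). The pentraxin Ptx3 read 5.97, 5.99, 5.87, 6.12 and 6.31 against 7.11 to 7.90 (1.39 ± 0.15), and tenascin C, Tnc, rose by 1.06 ± 0.18. The second synthase Has2 rose by 0.63 ± 0.09 and the hyaluronan receptor Cd44 by 0.56 ± 0.08. Has3 (0.03), Fn1 (-0.01) and Vcan (0.03 ± 0.33) did not pass.

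Proteases and clotting genes rose at a few members. Of 16 coagulation and fibrinolysis genes 5 rose, among them F3, the urokinase receptor Plaur (1.41 ± 0.16), urokinase, Plau (0.82 ± 0.10), and tissue plasminogen activator, Plat (0.68 ± 0.16). The anticoagulant Thbd, thrombomodulin, fell by 0.30 ± 0.06; without high stretch array 9, 2 genes of the list fell. Of 22 metalloproteinase genes 5 rose, with Adamts4 at 1.49 ± 0.21, the inhibitor Timp1 at 1.28 ± 0.20 and Mmp19 at 1.18 ± 0.24, and 4 fell, or 2 without low stretch array 3 or array 4. The neutrophil proteases Mmp8 (-0.06) and Mmp9 (0.36, adjusted p = 0.377) did not pass. Among 15 genes of TGF-beta and activin signalling 7 rose by small steps, such as Fstl3 (0.50 ± 0.07) and Tgfbr1 (0.39 ± 0.05), and none fell, or 1 without high stretch array 9.

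Keratins and other genes of injured epithelium rose, while most identity genes of the alveolar epithelium did not pass the test. Krt8 read 11.16, 10.70, 10.97, 10.83 and 11.17 at low stretch and between 12.41 and 12.83 at high stretch, a 3.06-fold rise (1.62 ± 0.11, adjusted p = 9.4e-13). Its partner keratin Krt18 rose 2.71-fold and Krt19 2.33-fold, both without overlap, and Krt7 by 0.43 ± 0.07. The basal cell keratins Krt5 (0.15), Krt14 (0.22) and Krt15 (0.17) did not pass. Krt14 nevertheless lay between 6.33 and 6.53 at low stretch and between 6.54 and 6.79 at high stretch, without overlap. Its SE of 0.16 pools the spread of all 5 groups of arrays. The SD of Krt14 was 0.08 at low stretch, 0.07 at high stretch and 0.26 without ventilation. The annexin Anxa1 rose by 0.70 ± 0.06 and galectin 3, Lgals3, by 0.74 ± 0.09. Over the list of injured epithelium genes 10 of 16 rose and none fell (median 0.41). Of 17 tight junction genes 8 rose: after Cldn4 came Cldn7 (0.71 ± 0.09), occludin, Ocln (0.55 ± 0.06), Cldn3 (0.50 ± 0.06) and Cldn23 (0.48 ± 0.09). Cldn18, the main claudin of the alveolus, did not pass (-0.06, adjusted p = 0.398). The scaffold Tjp3 fell by 0.29 ± 0.07, and 3 members fell in all, or 1 without low stretch array 3 or array 4.

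Of 14 alveolar type 2 genes 1 rose, Sftpd (0.26 ± 0.05), and 1, Abca3, fell by 0.23. Abca3 was not called without low stretch array 2, 3 or 4 or high stretch array 1, 5, 8 or 10. The count of falls was then 0, except without high stretch array 8. It was 2 without low stretch array 1 or 5 or high stretch array 7, and 3 without high stretch array 4. Without high stretch array 2 the count of rises was 2. Of 14 alveolar type 1 genes Gprc5a rose (0.24 ± 0.05), and Rtkn2 fell by 0.60 ± 0.09, from 10.53, 10.71, 10.63, 10.62 and 10.40 to between 9.62 and 10.35. Of 11 genes of alveolar fluid transport, the chloride channel Cftr (0.49 ± 0.11) and the kinase Sgk1 (0.28 ± 0.07) rose, and 3 fell, led by the water channel Aqp4 (-0.41 ± 0.09) and Scnn1g (-0.37 ± 0.07), a subunit of the epithelial sodium channel; over all genes 8.72% rose and 9.56% fell.

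Genes for making ribosomes rose together. Myc, a driver of ribosome production, read 8.93, 8.03, 7.82, 7.85 and 8.67 at low stretch and between 9.52 and 10.02 at high stretch, without overlap (1.50 ± 0.14, 2.83-fold). Of 22 ribosome biogenesis genes 18 rose and none fell (median 0.41). Nop58, of the small nucleolar ribonucleoprotein, read 9.37, 8.89, 8.71, 8.85 and 9.33 against 9.60 to 10.26 (0.86 ± 0.13). Rrp12 rose by 0.73 ± 0.09, the helicase gene Ddx21 by 0.56 ± 0.08 and fibrillarin, Fbl, by 0.41 ± 0.07. The mean of the list lay between 8.50 and 8.72 in non-ventilated lungs, between 8.66 and 8.92 at low stretch and between 8.97 and 9.34 at high stretch, so the ventilated groups did not overlap. Respiratory chain subunits did not follow: 1 of 20 rose, cytochrome c, Cycs (0.42 ± 0.10), and none fell. Of 23 cell cycle genes 1 rose, Pcna (0.26 ± 0.06), and 1, Mcm7, fell by 0.20, which was not called without low stretch array 3; Mki67 was at 0.13 (adjusted p = 0.691).

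The amino acid response under the transcription factor ATF4 rose in 12 of 19 genes and fell in 1 (median 0.40). The amino acid carrier Slc7a1 rose by 0.83 ± 0.11, the serine synthesis gene Psat1 by 0.80 ± 0.12, asparagine synthetase, Asns, by 0.63 ± 0.09 and Atf4 by 0.49 ± 0.07. Its pro-apoptotic targets Ddit3 (0.12, adjusted p = 0.389) and Trib3 (0.06, adjusted p = 0.794) did not pass. Endoplasmic reticulum chaperones rose in 3 of 18 cases, Manf by 0.29 ± 0.08 and the others by no more than 0.34, and in 1 without low stretch array 3 or array 4; Herpud1 fell by 0.28 and was not called without low stretch array 1, which left 0 falls. Antioxidant genes under NRF2 rose in 10 of 21 cases and fell in 1. Here the low stretch lungs were spread: Slc7a11, the cystine carrier, read 11.22, 9.88, 8.61, 9.20 and 10.32 against 10.83 to 11.64, so that 4 of 10 high stretch arrays lay above all low stretch arrays. Its change was 1.35 ± 0.27 and 1.70 without low stretch array 1. For heme oxygenase, Hmox1, the change was 1.02 ± 0.23 and, without that array, 1.29. Gclc, which makes glutathione, rose by 0.73 ± 0.09 and the metallothioneins Mt2 and Mt1 by 0.89 ± 0.16 and 0.70 ± 0.14; of 10 metallothionein and zinc carrier genes 4 rose and none fell.

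Growth arrest genes split. The kinases Plk2 (9.88, 9.31, 9.35, 9.63 and 9.53 against 10.65 to 10.91) and Plk3 rose without overlap, by 1.26 ± 0.12 and 1.19 ± 0.11, and Mdm2, the p53 ubiquitin ligase, by 0.21 ± 0.05. Sesn1 fell by 0.70 ± 0.17 and Trp53inp1 fell by 0.35 ± 0.09. Of 16 p53 target genes 7 rose and 3 fell. Of 17 clock genes 2 rose, Bhlhe40 (1.24 ± 0.14, without overlap) and Nfil3 (0.70 ± 0.18), and Nr1d1 fell by 0.60 ± 0.13; 2 fell without low stretch array 5 and 3 without high stretch array 8. The core factor Arntl varied by over 1 log2 within each group and did not pass (-0.07 ± 0.39). Glucocorticoid targets were mixed, with 4 of 15 higher and 5 lower, among the latter Tat, Ddit4 (-0.57 ± 0.14) and Sult1a1 (-0.57 ± 0.13). Only 3 fell when any 1 of low stretch arrays 1 to 4 or of high stretch arrays 1, 2, 3, 4, 6 and 10 was left out, and Fkbp5 did not pass (-0.15, adjusted p = 0.624). Of 20 hypoxia and glycolysis genes 7 rose, with the glucose carrier Slc2a1 at 0.70 ± 0.13 and hexokinase 2, Hk2, at 0.62 ± 0.07, and 4 rose without low stretch array 3 or array 4. The pH regulator Car9 and Vegfa, both classical hypoxia targets, did not pass (0.04 and 0.05). Bnip3 fell by 0.31 ± 0.07 and was 1 of 2 that fell, or the only 1 without low stretch array 3 or 4 or high stretch array 5.

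Among the 61 gene lists, that of multiciliated airway cells held the most genes that fell. Of 23 measured genes 11 fell and none rose (median -0.20), beside 9.56% of all genes that fell. Sntn, of the ciliary tip, read 7.55, 7.51, 7.60, 7.55 and 7.20 at low stretch and between 6.71 and 7.12 at high stretch, and fell by 0.61 ± 0.11 without overlap. The ciliary transcription factor Rfx3 read 8.02, 8.16, 8.08, 8.14 and 8.11 against 7.62 to 7.95 and fell by 0.31 ± 0.05, also without overlap. The dynein heavy chain Dnah5 fell by 0.34 ± 0.08 and the dynein assembly gene Zmynd10 fell by 0.38 ± 0.10. Foxj1, the master regulator of motile cilia, fell by 0.18 ± 0.06 and was not called without low stretch array 1, 2 or 4. Rsph1 (0.05), Tppp3 (0.08) and Ccno (0.06) did not pass. The mean of the list was 8.11, 8.01, 8.10, 8.07 and 7.81 on the low stretch arrays and lay between 7.59 and 7.95 on the high stretch arrays, so that low stretch array 5 was within the high stretch range. Of 14 secretory airway genes 2 fell, Cckar and Gabrp, and Scgb1a1, the club cell secretoglobin, was at -0.05 (adjusted p = 0.482); Gabrp (-0.30) was not called without low stretch array 3 or array 4.

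Of 22 endothelial genes 7 fell and 2 rose, beside 9.56% and 8.72% of all genes. With low stretch array 3 or array 4 left out only 3 fell, and with array 4 left out only 1 rose. Over all 19938 genes 1162 fell without array 3 and 1384 without array 4. Tmem100, a membrane protein of lung endothelium, read 11.23, 11.63, 11.63, 11.78 and 11.48 at low stretch and between 10.48 and 11.16 at high stretch, and fell by 0.73 ± 0.13 without overlap; its non-ventilated mean was 12.79. The angiopoietin receptor Tek fell by 0.32 ± 0.07 and its ligand Angpt1 fell by 0.46 ± 0.10, while the factor Sox7 rose by 0.54 ± 0.10. The pan-endothelial genes Kdr (-0.04), Erg (-0.02) and Pecam1 (-0.11, adjusted p = 0.0967) did not pass. In the VEGF, angiopoietin and endothelin list 2 of 21 rose and 3 fell, near the shares over all genes; the vasodilator peptide Adm rose by 1.03 ± 0.20 without overlap. Nrp2, the other that rose (0.22), was not called without low stretch array 1, 2, 4 or 5 or high stretch array 1, 5, 6, 7, 8 or 10, which left 1. In the Notch list the target gene Hes1 rose by 0.50 ± 0.08 and the ligand Jag1 fell by 0.31 ± 0.06, among 3 rises and 2 falls in 15.

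None of 20 neutrophil genes and none of 14 monocyte and interstitial macrophage genes passed. The neutrophil genes S100a8 (0.05 ± 0.36), Ly6g (0.04 ± 0.37) and Cxcr2 (-0.07 ± 0.34) had errors several times the median SE of all genes, 0.081. Only large changes of these genes could thus have been called in this fit, whose errors pool the spread of all 5 groups of arrays. For Cxcr2 the SD was 1.42 in non-ventilated lungs, 0.33 at low stretch and 0.28 at high stretch. The mean of the neutrophil list lay between 6.70 and 8.20 in non-ventilated lungs, between 8.80 and 9.53 at low stretch and between 8.74 and 9.72 at high stretch. Both ventilated groups thus stood above the non-ventilated lungs and overlapped with each other. All lungs had been lavaged, so cells free in the airspace were not part of the sample to the extent that lavage removed them.

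B cell genes rose in 9 of 13 cases and fell in none (median 0.39). The number called depended on single low stretch arrays: 3 were called without low stretch array 2 and 2 without array 4. In hypercapnia, on other arrays, 7 of the 13 rose and none fell (median 0.39), beside 10.1% of all genes called there in either direction. Blk, a B cell kinase, read 6.73, 6.57, 6.81, 6.80 and 6.92 against 6.87 to 7.28 and rose by 0.38 ± 0.10; it kept its call without any single array. Fcer2a, the low-affinity IgE receptor, rose by 0.58 ± 0.16 and was not called without low stretch array 1. The mean of the list was between 7.69 and 8.27 in non-ventilated lungs, between 6.64 and 7.09 at low stretch and between 6.97 and 7.40 at high stretch, so the high stretch lungs lay between the others and overlapped with low stretch. Of 19 T and natural killer cell genes 1 rose, Cd2 (0.38 ± 0.10), or 5 without low stretch array 5 and 2 without high stretch array 9.

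None of 17 interferon-stimulated genes passed (median -0.22), or 1 fell without low stretch array 5 or high stretch array 8. The low stretch lungs differed among themselves here, with list means of 9.39, 8.66, 7.82, 7.86 and 7.84, whereas high stretch lungs lay between 7.67 and 8.52 and non-ventilated lungs between 7.61 and 7.92. Ifit1 ranged from 8.26 to 10.89 at low stretch and from 8.14 to 9.67 at high stretch (change -0.30 ± 0.43). Low stretch array 1 was thus the highest both for interferon-stimulated genes and for the 20 largest rises; its part in the other results was not tested beyond leaving it out.

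**Figure D4:**
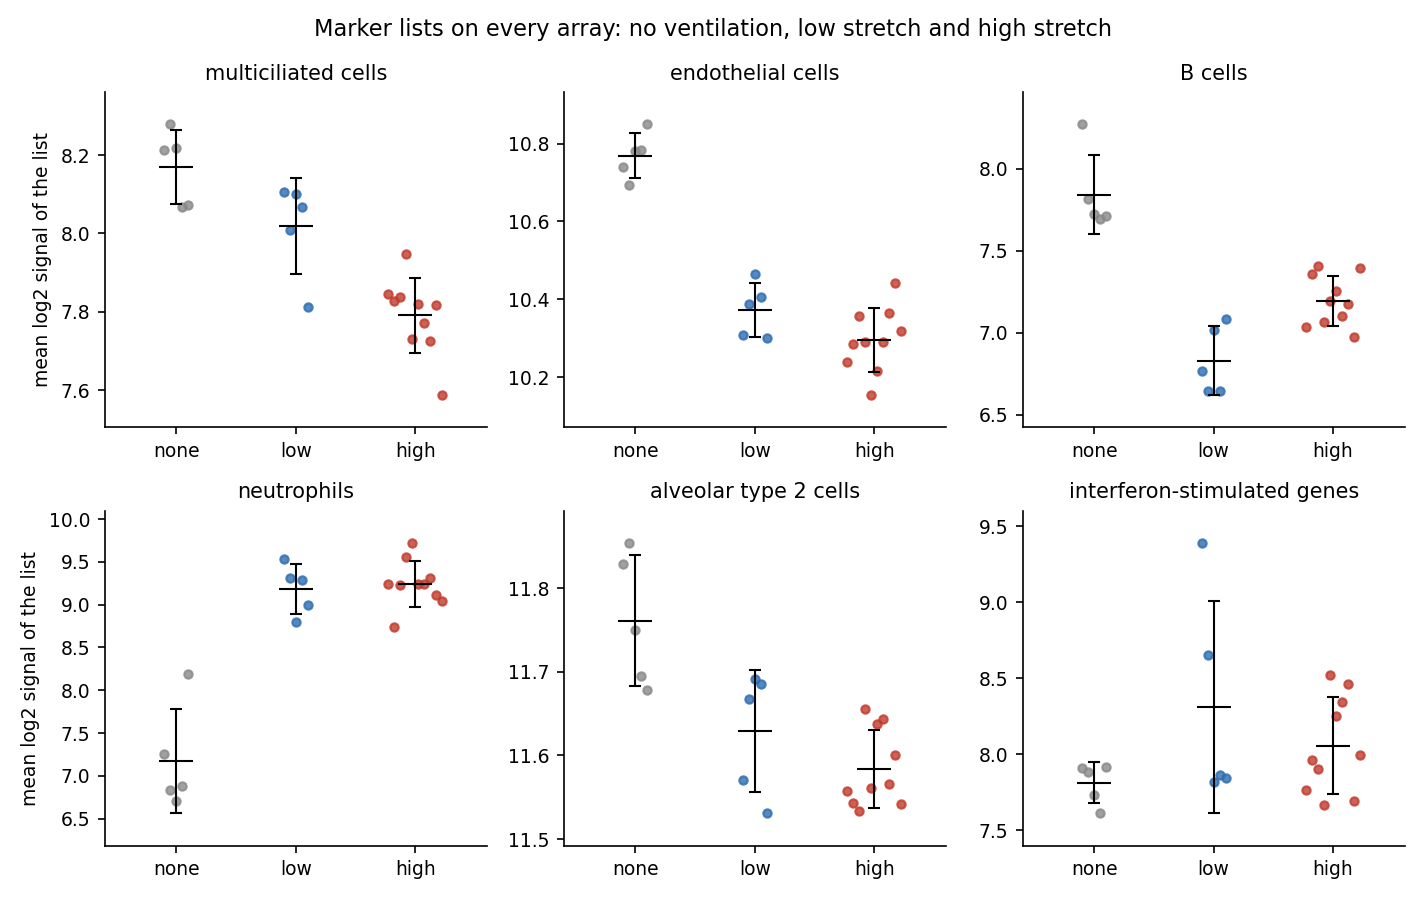
Mean log2 signal over the measured genes of 6 lists (vertical axis) in each non-ventilated, low stretch and high stretch lung; the long bar is the group mean and the short bars mark 1 SD. High stretch lungs lie lowest for multiciliated genes and between the other groups for B cell genes, both ventilated groups lie above non-ventilated lungs for neutrophil genes, and 1 low stretch lung reaches 9.39 for interferon-stimulated genes.

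Low stretch lungs had themselves been ventilated for 3 h, and 2353 genes (11.8%) were called between them and non-ventilated lungs. This comparison shares its 5 low stretch arrays with the one above, so the values are only set side by side. Il1b was 2.19 higher at low stretch than without ventilation (adjusted p = 5.1e-05) and did not differ detectably between low and high stretch. Il6 lay at 4.33 without ventilation and at a low stretch mean of 4.40, both near the lower end of the signal range, and at a high stretch mean of 7.70. Il33 averaged 10.36, 9.48 and 10.82 in the same order, so low stretch was the lowest of the 3. Tmem100 averaged 12.79, 11.55 and 10.82, and the metabolic genes Ttpa (6.30, 6.90 and 6.15) and Tat (6.96, 8.73 and 7.79) were highest at low stretch.

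The same stretch comparison in hypercapnia, with CO2 added to the inspired gas as a fraction of 0.12 (FiCO2), used 15 other arrays and called 2017 genes (10.1%). The 20 largest rises of normocapnia all had the same direction there and 19 were called, the exception being Sprr1a (0.66, adjusted p = 0.186). The SE of Sprr1a, 0.31, pools the spread of all 5 groups of arrays, and its non-ventilated arrays ran from 6.81 to 9.35. The 20 largest falls all had the same direction and 15 were called. The median change of the rises was 1.70 in normocapnia and 1.43 in hypercapnia, and that of the falls -0.86 and -0.58. The genes were chosen for their size in normocapnia, which by itself tends to place them further out there, so nothing is read from the order of the 2 medians. The difference between the 2 stretch responses was tested directly as an interaction in limma: 0 of 19938 genes passed (0%), the smallest adjusted p was 0.841, and 893 genes had an unadjusted p under 0.05. F3 changed by 1.52 in normocapnia and 1.06 in hypercapnia (unadjusted interaction p = 0.00517, adjusted 0.997), and Egr2 by 2.29 and 1.56 (0.0063, adjusted 0.997). Ptgs2 (2.14 and 2.06) and Atf3 (2.09 and 2.03) gave nearly equal values. Il6 changed by 3.29 and 2.72 with SEs of 0.24 each (unadjusted interaction p = 0.102).

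**Figure D5:**
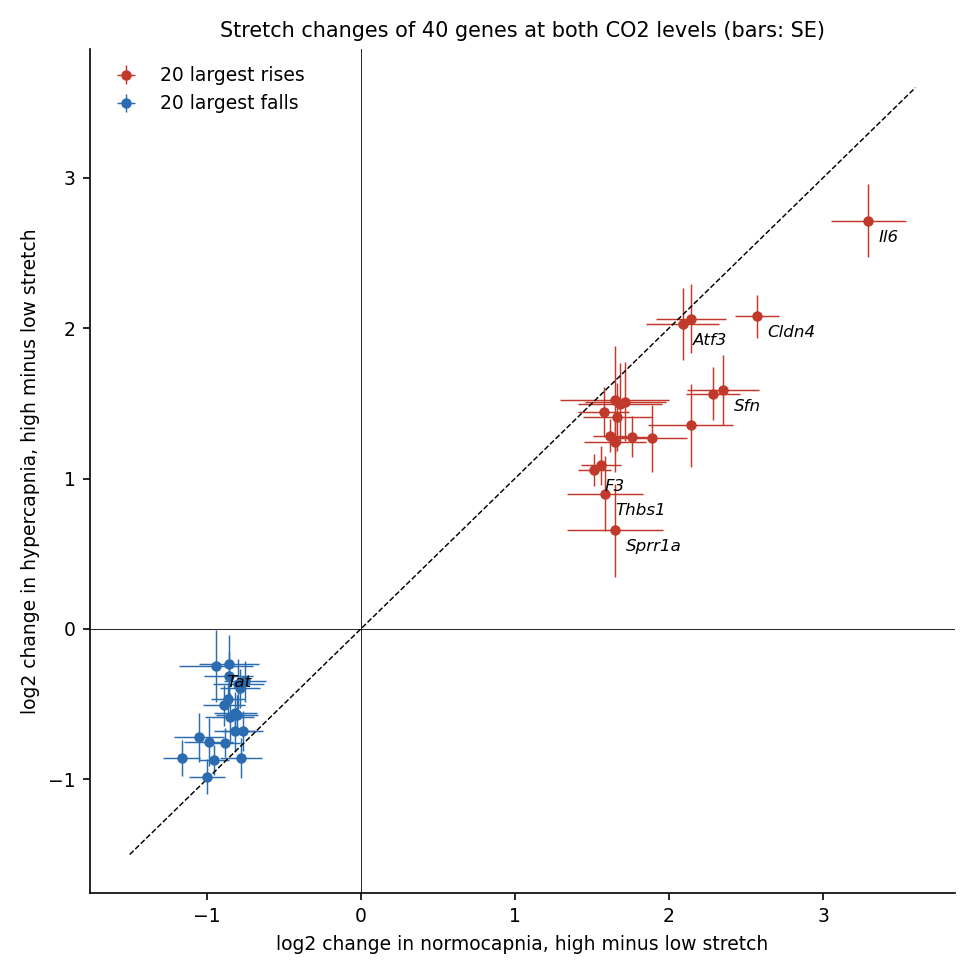
Log2 change of high minus low stretch in normocapnia (horizontal axis) and in hypercapnia (vertical axis) for the 20 largest rises (red) and 20 largest falls (blue) of normocapnia, with SE bars; the dashed line marks equal changes. All 40 points keep their sign, Sprr1a lies farthest below the line, and Ptgs2 and Atf3 lie close to it; the genes were chosen by the horizontal value.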

How the data were processed

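Affymetrix whole-transcript arrays of 35 mouse lungs, 1 array per animal, gave the values. The deposited series values are log2 signals; the submitters' processing notes name RMA, Affymetrix Expression Console and Partek, with no order or version. RMA subtracts background, makes the arrays' distributions equal and sums probes, so a change shared by all genes cannot be seen. Of 35557 probe sets, 21789 carry 1 symbol in the platform annotation, 1621 several and 12147 were not listed there; 19938 genes resulted, 999 with more than 1 probe set.

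Group means over all 5 groups of arrays were fitted with limma 3.58.1 in R 4.3.3, with no filter on dim genes, no covariate, two-sided tests and Benjamini-Hochberg adjustment over 19938 genes at 0.05. The interaction of stretch and CO2 was a contrast of the same fit. Tests were checked on simulated data. Named genes were the 20 largest called rises and falls and members of 61 lists (973 genes, 74 not measured, a few in more than 1 list). The genes and lists were chosen with earlier results of these data known. Alternatives covered the samples fitted, a replicate block, array weights, a variance trend, dim genes, probe sets, centring, a second quantile step, array spread, and each array left out in turn. Number of arrays limits the precision.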

Additional observations from a re-analysis of the deposited data

Results flagged for a closer look

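A value was marked when the highest or lowest array of a group lay far from the rest by Dixon's test at the 95% level, which chance does in about 1 of 20 groups. The test was run on the 5 low stretch and the 10 high stretch arrays of each gene named in the text, 470 groups in all, and marked 26 values in 24 genes, close to what chance gives; genes of 1 array are not independent.

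Low stretch array 1 stood above its group for Atf3 (10.04, next 8.15), Egr1 (8.30, next 7.68), Jun (11.41, next 11.11), Icam1 (11.36, next 11.05) and Trib3 (8.67, next 8.08), and below it for Btc (6.59, next 6.75) and Ccl22 (6.55, next 6.77). Low stretch array 5 stood below its group for Fam216b (8.09, next 8.68), Lrrc74b (7.51, next 8.24) and the ciliary genes Rsph4a (7.85, next 8.51), Sntn (7.20, next 7.51) and Zmynd10 (6.96, next 7.59), and above it for Gja1 (10.03, next 9.73) and Tgfbr1 (10.02, next 9.81).

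Among high stretch lungs, array 5 stood highest for Tnf (9.07, next 7.87) and Nlrp3 (7.84, next 7.12), array 1 for Adamts4 (8.83, next 8.02) and Gja1 (11.37, next 10.95), array 6 for Cd44 (10.56, next 10.38) and Adam17 (10.31, next 10.12), and array 4 for Lrrc74b (7.87, next 7.44). The lowest values marked were those of array 9 for Sele (7.25, next 7.66), array 2 for Il18 (7.03, next 7.48) and Rhbdf1 (8.68, next 8.90), array 10 for Elf3 (8.12, next 8.41) and array 1 for Cma1 (4.99, next 5.23).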

How the results depend on the processing

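The number of genes called between high and low stretch was 3646 in the fit reported and between 3315 (arrays centred on their median) and 5030 (array weights) under the other settings, apart from the replicate block. Genes that were called and changed by at least 1 log2 numbered between 73 (genes above the median level) and 92 (array weights). Leaving out each array in turn gave 2581 to 3768 called genes, 1419 to 1878 higher and 1162 to 1969 lower, the least of each without low stretch array 3, and 76 to 90 changed by at least 1 log2. Centring moved the share of called genes that were higher from 47.7% to 57.4%. With low stretch array 1 and high stretch array 2 left out together, a setting chosen after seeing the data, 3554 genes were called. No gene was called for the interaction under any setting, and between 486 and 1386 had an unadjusted p under 0.05, the lower count with only genes above the median level fitted. Same-numbered low and high stretch arrays correlated at 0.124, 0.264, 0.154, 0.191 and 0.045. Of the low stretch arrays, 3 of 5 correlated best with their own number among high stretch arrays 1 to 5. The other high stretch arrays were not searched. Since 1 correlation lay under the minimum of 0.1 and the labels tie no arrays together, the numbers were not taken as pairs. A replicate block gave 2626 called genes, 1298 higher and 1328 lower. With it 8 of the 178 called genes named here were not called (Abca3, Cd2, Foxj1, Gabrp, Gata2, Insig1, Nrp2 and Tnfsf10), and 20 of 122 list counts were smaller by more than 1.5 times, among them the multiciliated falls at 7. Of the genes named here that were called, none changed direction under any setting. The 5 low stretch arrays and the missing batch information limit small changes most, and dim genes such as Il6 at low stretch were measured near the lower end of the signal range.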

Other observations

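Further gene lists add to the account. Of 16 ETS factors 4 rose and 1 fell (2 without low stretch array 1 or 5 or high stretch array 4 or 8): Elf3, a factor of epithelium, read 7.94, 7.92, 7.77, 7.61 and 7.49 at low stretch and between 8.12 and 8.71 at high stretch (0.76 ± 0.09), and Etv1 read 8.18, 8.08, 8.31, 8.34 and 8.01 against 7.17 to 7.92 and fell by 0.72 ± 0.12. Neither overlapped. Kit, the stem cell factor receptor, which mast cells and some lung endothelium carry, read 11.20, 11.11, 11.15, 11.04 and 11.06 against 10.29 to 10.73 and fell by 0.62 ± 0.07, without overlap. The mast cell proteases Cpa3 (0.02), Mcpt4 (0.01) and Cma1 (-0.03) did not pass, and of 12 mast cell genes Kit and Gata2 fell, the latter not called without low stretch array 2. Of 12 acute phase genes 2 rose, or 1 without low stretch array 3, 4 or 5 or high stretch array 1; the fibrinogen chain Fgg rose from 5.67, 6.29, 6.29, 6.12 and 5.84 to between 6.71 and 8.11, without overlap, and Fgb was at 0.00 (adjusted p = 0.999).

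Within sterol metabolism Pmvk, of the mevalonate pathway, rose by 0.97 ± 0.16 and the sterol sensor Insig1 fell by 0.35 ± 0.09, among 2 rises and 4 falls in 15 genes; 1 fell without low stretch array 3 or array 4, and 1 rose without low stretch array 1, 2 or 3 or high stretch array 3, 4, 6, 7 or 8. The cholesterol exporter Abca1 fell by 0.41 ± 0.10. Of 18 heat shock genes 5 rose, or 8 without low stretch array 1, led by Dnajb4 (0.46 ± 0.08) and Hspb8 (0.37 ± 0.07), while Hspa1a was at 0.31 ± 0.42. Of 19 fibroblast genes Loxl1, a collagen crosslinking enzyme, rose by 0.47 ± 0.11 and Itga8 fell by 0.32 ± 0.07; 4 fell without low stretch array 1 and 2 without high stretch array 2, 6 or 9. None of 8 platelet and none of 4 red cell genes passed, or 1 platelet gene fell without high stretch array 2, 3 or 8.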
